A study of Mus musculus with 18 samples.

Results

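The 39 genes described here encode the sarcomere of striated muscle, the energy and oxygen supply of the muscle fibre, cardiac natriuretic peptides and the calcium handling of the cardiac myocyte. They were chosen by symbol, and each of the 39 matched a symbol among the 21887 protein-coding genes on the chromosomes of the RefSeq table for GRCm38.p6. A BMAL1 peak was counted at a gene when its centre lay inside the gene or within 50 kb of either end, and a peak near neighbouring members was counted once. The peaks came from ChIP-seq, in which DNA bound by BMAL1 is precipitated with an antibody and sequenced. Heart, kidney and liver were taken from the same wild-type C57BL/6 animals, 3 to 6 months old, at 6 h after lights on in a cycle of 12 h light and 12 h dark, with food and water always at hand. No treatment or mutation distinguished the groups, which differed by tissue, with 3 ChIP and 3 input libraries each. Each tissue had 1 peak list, made by the authors from all of its ChIP and input libraries together, of 4813 peaks in liver, 4034 in kidney and 2519 in heart. No value existed per animal, so no comparison below has an error between mice and none was tested. The lists do not show how deeply each tissue was sequenced. A longer list can also hold more weak peaks, so counts over all members were set beside the same count over all protein-coding genes in that list. Counts by role cover few genes and are descriptions. For the inputs of the heart, the source field says kidney where the title and the tissue field say heart, and whether this touched the heart list could not be checked here.

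BMAL1 is the constant partner of CLOCK in the activating arm of the circadian clock, and the pair binds E-boxes, most typically the sequence CACGTG. In the heart the clock in cardiomyocytes is known to set daily rhythms of metabolism and excitability. The sarcomere contracts when calcium released from the sarcoplasmic reticulum binds the troponin complex of the thin filament, and relaxes as calcium is pumped back. Thick filaments of myosin are held by titin and the M-band, thin filaments are anchored in the Z-disc, and many Z-disc proteins also carry stretch signals.

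In the heart list, 14 of 39 members had a peak (35.9%), against 22.7% of all protein-coding genes. In the kidney list 17 members had a peak (43.6%), against 33.1%, and in the liver list 10 members did (25.6%), against 34.0%. The members thus lay above the background in heart by 13.2 percentage points and in kidney by 10.5 points, and in liver the difference was -8.34 points. Within 100 kb the shares were 43.6% in heart (background 33.4%), 56.4% in kidney (background 44.9%) and 46.2% in liver (background 46.3%). By share of members, heart and kidney changed places at shorter distances, where kidney fell below its background. Within 10 kb, 7 members had a heart peak (17.9%, background 11.5%), 5 a kidney peak (12.8%, background 18.0%) and 5 a liver peak (12.8%, background 18.1%). Inside the gene, 5 members had a heart peak (background 6.83%), none a kidney peak (background 9.67%) and 2 a liver peak (background 10.2%). When each peak was given only to its nearest protein-coding gene within 50 kb, 7 members kept a heart peak (17.9%, background 9.66%), 4 a kidney peak (10.3%, background 14.2%) and 2 a liver peak (5.13%, background 15.0%). In heart the members stood above the background under each of these rules. Of the pairs of a member and a peak within 50 kb, the member was the peak's nearest gene in 10 of 22 in heart (45.5%, against 39.3% of all pairs with a protein-coding gene), in 5 of 21 in kidney (23.8%, against 35.2%) and in 3 of 13 in liver (23.1%, against 36.9%).

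**Figure D1:**
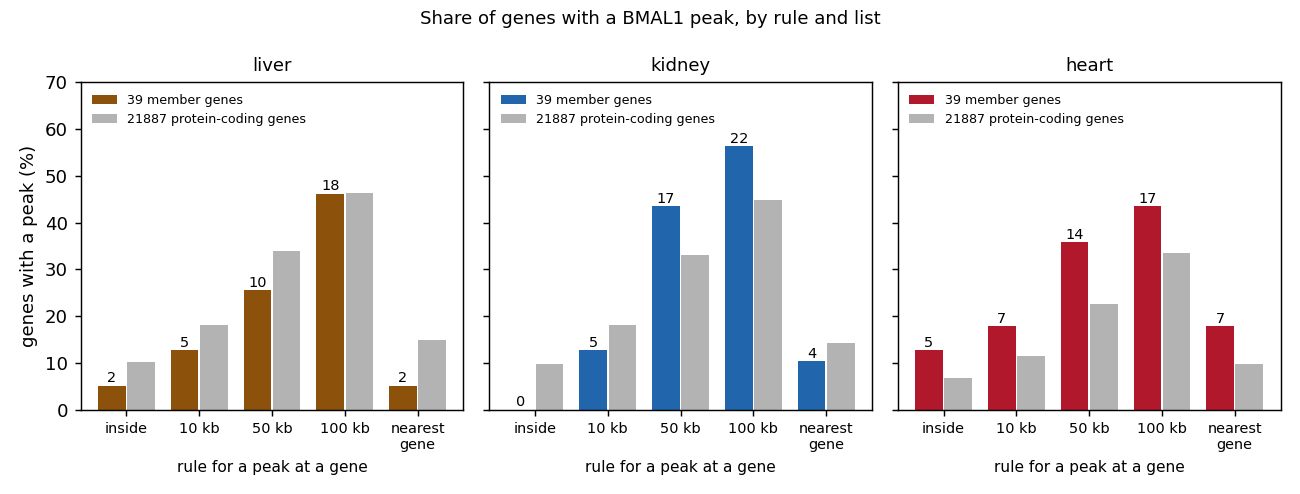
Share of genes (%) with a BMAL1 peak in the liver, kidney and heart lists under 5 rules: centre inside the gene, inside or within 10, 50 or 100 kb, and nearest protein-coding gene within 50 kb. Coloured bars are the 39 members, with the number of genes above each bar, and grey bars all 21887 protein-coding genes; in heart the coloured bar is the taller under all 5 rules, in kidney at 50 and 100 kb, and in liver under none.

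Gene length bears on such counts, because a long gene offers more room. The members had a median length of 23.9 kb, against 17.2 kb for all protein-coding genes. Per length of searched sequence, heart peaks numbered 3.24 per Mb inside members and the 10 kb around them (12 peaks in 3.71 Mb), against 1.67 per Mb around all protein-coding genes. Inside the genes alone, the heart densities were close, at 1.70 per Mb in members (5 peaks in 2.95 Mb) and 1.57 per Mb in all protein-coding genes. Kidney had no peak inside a member, against 2.41 per Mb, and liver had 0.678 against 2.75 per Mb. With 10 kb on each side the densities were 1.62 against 2.72 per Mb in kidney and 1.62 against 3.01 per Mb in liver. With 50 kb on each side the heart density was 3.15 per Mb against 1.40, the kidney density 3.15 against 2.26 and the liver density 1.80 against 2.62. Members over 200 kb long, a length chosen after the peaks were seen, were Ttn, Nebl, Trdn, Slc8a1 and Ryr2. None of these 5 had a heart or liver peak within 50 kb, where 32.3% and 33.2% of all protein-coding genes of that length did. A kidney peak lay near 2 of them, Ttn and Ryr2 (40.0%, against 31.3%).

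There were 21 heart peaks, 21 kidney peaks and 12 liver peaks near members. After overlapping peaks were merged, these 54 peaks formed 47 regions, of which 42 were in 1 list, 3 in 2 lists and 2 in all 3 lists. In heart, 18 of the 21 peaks overlapped no liver or kidney peak (85.7%, against 63.8% of all heart peaks within 50 kb of a protein-coding gene). The kidney share was 76.2% (16 of 21, against 57.1%) and the liver share 66.7% (8 of 12, against 65.0%). The member was the nearest gene of 10 of the 21 heart peaks, at Actn2, Atp2a2, Ckm, Jph2, Mb, Myl2 and Tcap. All 10 were in the heart list only, and of the peaks with a member as nearest gene 4 of 5 in kidney and 2 of 3 in liver were likewise in 1 list. The same share was not counted over the nearest genes of all peaks. These counts thus have no background, and nothing about the members is read from them.

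**Figure D2:**
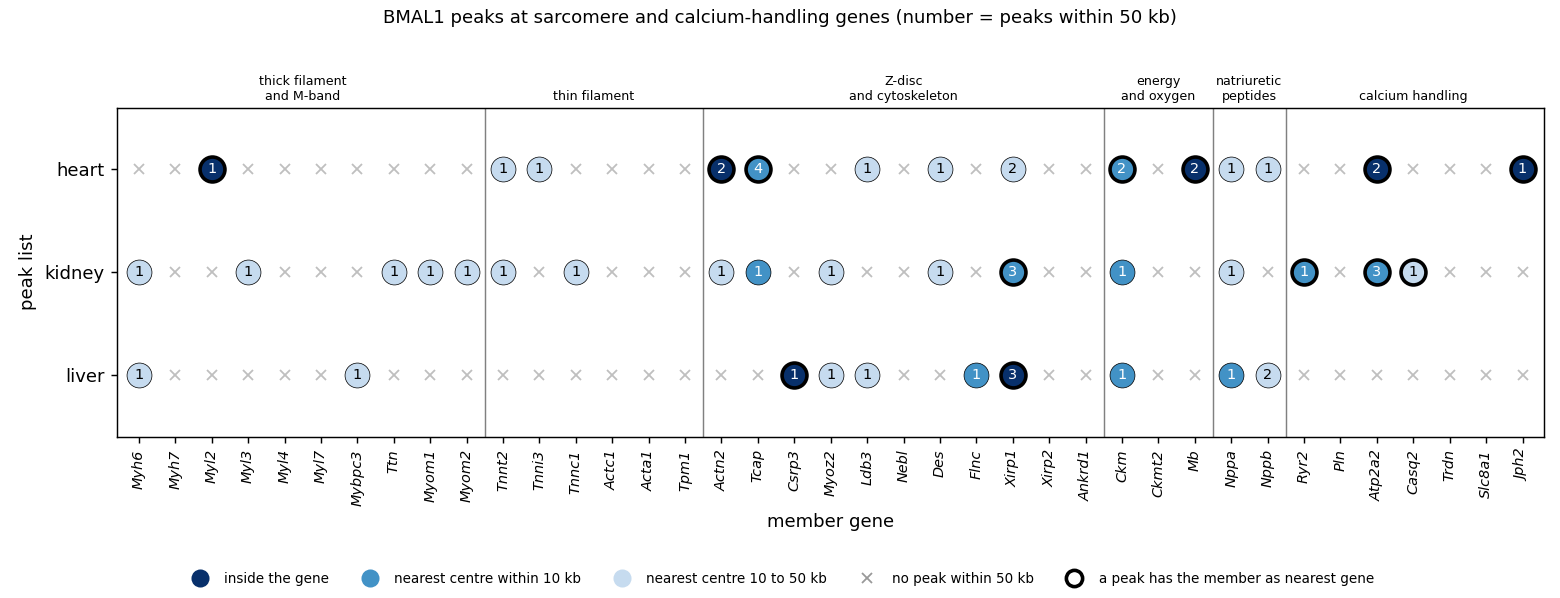
Each column is a member gene, grouped by role, and each row a peak list; the number in a circle counts the peaks within 50 kb, the fill gives the distance class of the closest one, a thick rim marks a member that is the nearest gene of at least 1 peak, and crosses mark genes without a peak. Dark circles for a peak inside the gene stand at 5 members in heart, at 2 in liver and at none in kidney.

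The score of a peak is a whole number from the authors whose scale is not given, so peaks were ranked by it only within their own list, with ties sharing the better rank. The heart peaks near members had scores from 18 to 133 with a median of 35, in a list with a median of 25. Of these 21 peaks 14 scored above the list's median (66.7%), against 51.5% of the heart peaks near any protein-coding gene. In kidney 12 of 21 did (57.1%, against 49.5%) and in liver 5 of 12 (41.7%, against 50.1%). The heart peaks inside a member or within 10 kb of it included both strong and weak sites. Among the peaks with the member as nearest gene, Tcap stood at rank 152 of 2519, Mb at 506 and 894, and Myl2 at 554. The Actn2 peaks ranked 628 and 1491, those of Atp2a2 723 and 1624, that of Ckm 1321 and that of Jph2 1406.

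**Figure D3:**
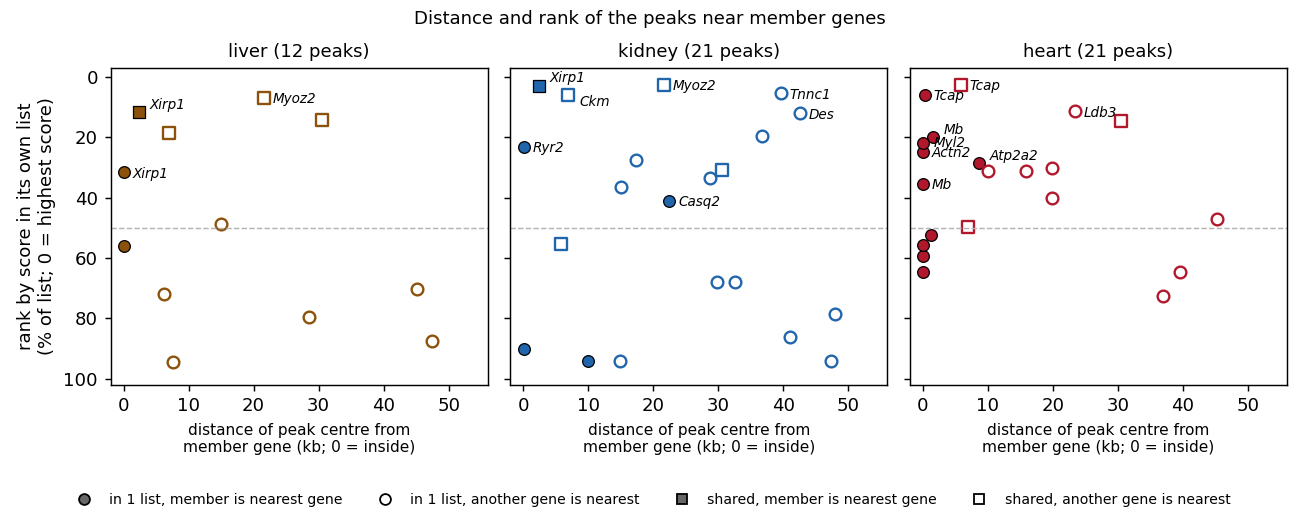
Each point is a peak near a member, by the distance of its centre from the gene (kb, 0 inside) and its rank by score as a percentage of its own list (0 at the top), with 1 panel per list. Filled points have the member as nearest protein-coding gene and squares overlap a peak of another list; the 10 filled heart points all lie within 10 kb of the gene.

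Where a peak was centred in a promoter, the sequence before the start could be read, although a peak does not show which bases were bound. RefSeq promoter windows, from 250 bases before to 50 after an annotated start, were given for 34 of the members (46 windows) and not for Myom2, Tcap, Xirp1, Atp2a2 and Trdn. A peak was centred in such a window at Actn2 and Mb in heart (2 of 34 members, 5.88%, against 2.42% of 17492 protein-coding genes), at Ryr2 in kidney (1 of 34, 2.94%, against 5.14%) and at Csrp3 in liver (1 of 34, 2.94%, against 3.70%). The 250 bases before each of these starts are shown 5′ to 3′ on the gene's own strand, which is the minus strand for all 4, from the RefSeq table for GRCm38.p6, with every CACGTG in capitals. CACGTT, searched on both strands, was in none of them. Each of the 4 peaks also ran past the start, so a part of it is not shown. The Mb peak was also centred in the window of another start, and only the bases before the closer start are shown.
Actn2, chr13:12340733-12340982: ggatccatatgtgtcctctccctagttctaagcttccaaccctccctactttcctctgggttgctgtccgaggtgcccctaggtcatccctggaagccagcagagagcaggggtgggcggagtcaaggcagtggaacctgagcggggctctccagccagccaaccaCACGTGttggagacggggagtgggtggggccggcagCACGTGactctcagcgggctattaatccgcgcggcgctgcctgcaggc
Mb, chr15:77022788-77023037: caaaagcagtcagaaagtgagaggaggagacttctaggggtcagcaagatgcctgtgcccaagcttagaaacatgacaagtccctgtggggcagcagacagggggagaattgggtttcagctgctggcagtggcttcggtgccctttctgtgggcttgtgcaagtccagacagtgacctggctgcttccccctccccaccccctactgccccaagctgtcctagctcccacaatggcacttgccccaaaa
Ryr2, chr13:12106946-12107195: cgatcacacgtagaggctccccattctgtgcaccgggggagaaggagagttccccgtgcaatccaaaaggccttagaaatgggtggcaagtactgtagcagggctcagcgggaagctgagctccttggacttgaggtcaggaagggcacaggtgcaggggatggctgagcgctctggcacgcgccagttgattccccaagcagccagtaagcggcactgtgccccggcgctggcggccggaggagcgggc
Csrp3, chr7:48843672-48843921: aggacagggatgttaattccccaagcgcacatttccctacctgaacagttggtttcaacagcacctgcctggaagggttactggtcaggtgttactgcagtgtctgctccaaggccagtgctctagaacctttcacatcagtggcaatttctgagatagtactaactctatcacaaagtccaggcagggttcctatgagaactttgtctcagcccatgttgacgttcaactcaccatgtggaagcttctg

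The Actn2 sequence held 2 CACGTG sites, with first bases at -84 and -48 from the start and 30 bases between the sites. Both lay inside the heart peak, whose centre was 17 bp before the start. Of 21006 promoter windows of protein-coding genes with different sequences, 7.90% held at least 1 CACGTG and 0.757% held 2 or more. Of the 449 windows with a heart peak centre, 41.2% held at least 1 and 9.13% held 2 or more. Windows with a liver or kidney peak centre held CACGTG in 46.5% and 41.6% of cases. The windows of Mb, Ryr2 and Csrp3 held no CACGTG, as was so for most windows with a peak centre. Over all member windows CACGTG was found in 2 of 46 (4.35%), at Actn2 and at a start inside Nebl, which had no peak within 50 kb.

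Motifs of muscle transcription factors were searched in the same windows. The serum response element, bound by SRF, was found in 8 of 46 member windows (17.4%, against 1.54% of all windows), at Acta1, Actc1, Ldb3, Myl3, Myl7, Myom1 and Nebl. The 2 windows of Ldb3 overlap and hold the same element, which was thus counted in both. The MEF2 motif was found in 5 (10.9%, against 2.71%), at Casq2, Mybpc3, Myoz2, Ttn and Xirp2. Both were searched on both strands, and a match describes letters, not binding. Few member windows had a peak centre at all, and none of those with either motif did, from which nothing is read. Of the windows with a heart peak centre, 1.34% held a serum response element and 0.891% a MEF2 motif.

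Among the 10 genes of the thick filament and M-band, Myl2 was the only one with a peak inside the gene or within 10 kb in any list, where 30.7% of all protein-coding genes had one. Myl2 encodes the regulatory light chain of ventricular myosin. Its heart peak lay inside the gene at chr5:122100712-122100909, 7.62 kb past the annotated start, with a score of 45, and no liver or kidney peak lay within 50 kb. Heart peaks were found at no other gene of this group. Kidney peaks lay near Myh6, Myl3, Ttn, Myom1 and Myom2, between 14.9 and 48.0 kb away, and each had another gene as its nearest. The kidney peak beyond the end of Ttn, the giant spring of the sarcomere, was at chr2:76675106-76675293 with a score of 37. It was 28.8 kb from Ttn and 105 bp outside Plekha3, with its centre in the promoter window of Plekha3. The kidney peak upstream of Myl3, the ventricular essential light chain, was 15.0 kb away at chr9:110748569-110748756 with a score of 35, nearest to Pth1r. Peaks near Myom1 and Myom2, which cross-link thick filaments in the M-band, both had a score of 14, the lowest in the kidney list. Myh6, the adult cardiac myosin heavy chain, had a kidney peak of score 18 and a liver peak of score 21 at the neighbour Pabpn1, 48.0 and 47.4 kb from Myh6. Mybpc3, which encodes cardiac myosin-binding protein C, had a liver peak of score 40 inside Madd, 15.0 kb downstream. Myh7, Myl4 and Myl7 had no peak in any list.

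None of the 6 genes of the thin filament had a peak inside the gene or within 10 kb in any list. Over all 39 members 12 did (30.8%), against the same background of 30.7%, and a count of 0 among so few genes is a description. The nearest was a heart peak of score 35 at chr1:135862178-135862375, 10009 bp beyond the end of Tnnt2, the cardiac troponin that anchors the complex to tropomyosin. That site was nearest to Pkp1. A kidney peak of score 42 lay on the other side of Tnnt2, 17.4 kb upstream inside Lad1, at chr1:135818799-135818986. Tnni3, the inhibitory cardiac troponin, had a heart peak of score 29 inside Ppp1r12c, 19.9 kb away at chr7:4498267-4498464. Tnnc1, the calcium-binding troponin of heart and slow muscle, had a kidney peak of score 96 at chr14:31251243-31251430, in the promoter windows of Phf7 and Bap1 and 39.6 kb from Tnnc1. The actins Actc1 and Acta1 and the tropomyosin Tpm1 had no peak in any list.

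The highest heart scores near members, 133, 97, 70 and 59, were within 50 kb of genes of the Z-disc and cytoskeleton, a group of 11. Of these sites only that of score 97 had a member, Tcap, as its nearest gene. Tcap encodes telethonin, which caps the end of titin in the Z-disc, and it had 4 heart peaks within 50 kb. Tcap was the nearest gene of 1 of them. In that list 0.146% of all protein-coding genes (32 genes) reached 4 peaks. This cutoff is Tcap's own count, so the share is a description and no test. The heart peak closest to Tcap lay 277 bp outside the gene at chr11:98383435-98383632, with a score of 97 at rank 152, and overlapped no peak of another list. The highest of the 4 lay inside the neighbour Stard3, 5.80 kb from Tcap at chr11:98377910-98378107, with a score of 133 at rank 66. The same site had a kidney peak of score 25 at rank 2237 of 4034 (chr11:98377959-98378146) and no liver peak. Another heart peak inside Stard3 had a score of 35 and one inside Gm33099 a score of 26. No liver peak lay within 50 kb of Tcap. Nr1d1, a clock gene, lies 383 kb away, outside the window.

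Actn2 encodes alpha-actinin 2, the cross-linker of thin filaments in the Z-disc. Its promoter peak, at chr13:12340650-12340847, had a score of 41 at rank 628 of the heart list. A second heart peak lay inside the gene at chr13:12337875-12338072, 2.76 kb past the start, with a score of 22. The kidney list had a peak 41.0 kb beyond the other end of Actn2, inside Mtr, with a score of 16, and the liver list had none. At Actn2 both sites close to the start were thus in the heart list only.

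Xirp1 encodes an actin-binding protein of the intercalated disc, and its pattern ran the other way. A site 2.4 kb outside the gene had a kidney peak of score 119 at rank 124 (chr9:120011295-120011482) and a liver peak of score 91 at rank 570 (chr9:120011244-120011485). A further liver peak of score 55 lay inside Xirp1 at chr9:120017088-120017329. No heart peak lay within 30 kb of the gene. The heart list had a peak of score 59 at the promoter of Csrnp1, 30.5 kb from Xirp1, at a site shared with liver (score 83) and kidney (score 39), and a weak one of score 18 inside Cx3cr1.

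Other Z-disc genes had single or distant sites. Csrp3 encodes the muscle LIM protein, and its only peak, of score 35 in liver, lay inside the gene at chr7:48843641-48843882, centred 91 bp before an annotated internal start. Myoz2, a calcineurin-binding Z-disc protein, was 21.6 kb from a strong site inside Usp53, with a kidney peak of score 127 at rank 111 (chr3:122984485-122984672) and a liver peak of score 113 at rank 335 (chr3:122984449-122984690). Heart had no peak within 50 kb of Myoz2. Ldb3, which stabilises the Z-disc under load, had a heart peak of score 70 at rank 286 inside Bmpr1a, 23.4 kb away at chr14:34503164-34503361. A liver peak of score 24 lay 28.6 kb upstream of Ldb3. Flnc, the filamin of striated muscle, had a liver peak of score 27 inside Atp6v1f, 6.20 kb away at chr6:29467965-29468206. Des, the intermediate filament desmin, was 42.5 kb from a kidney peak of score 67 at the promoter of Dnpep (chr1:75317713-75317900) and 39.6 kb from a heart peak of score 20 inside Speg, a kinase of striated muscle. Nebl, Xirp2 and the stretch-responsive Ankrd1 had no peak in any list.

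**Figure D4:**
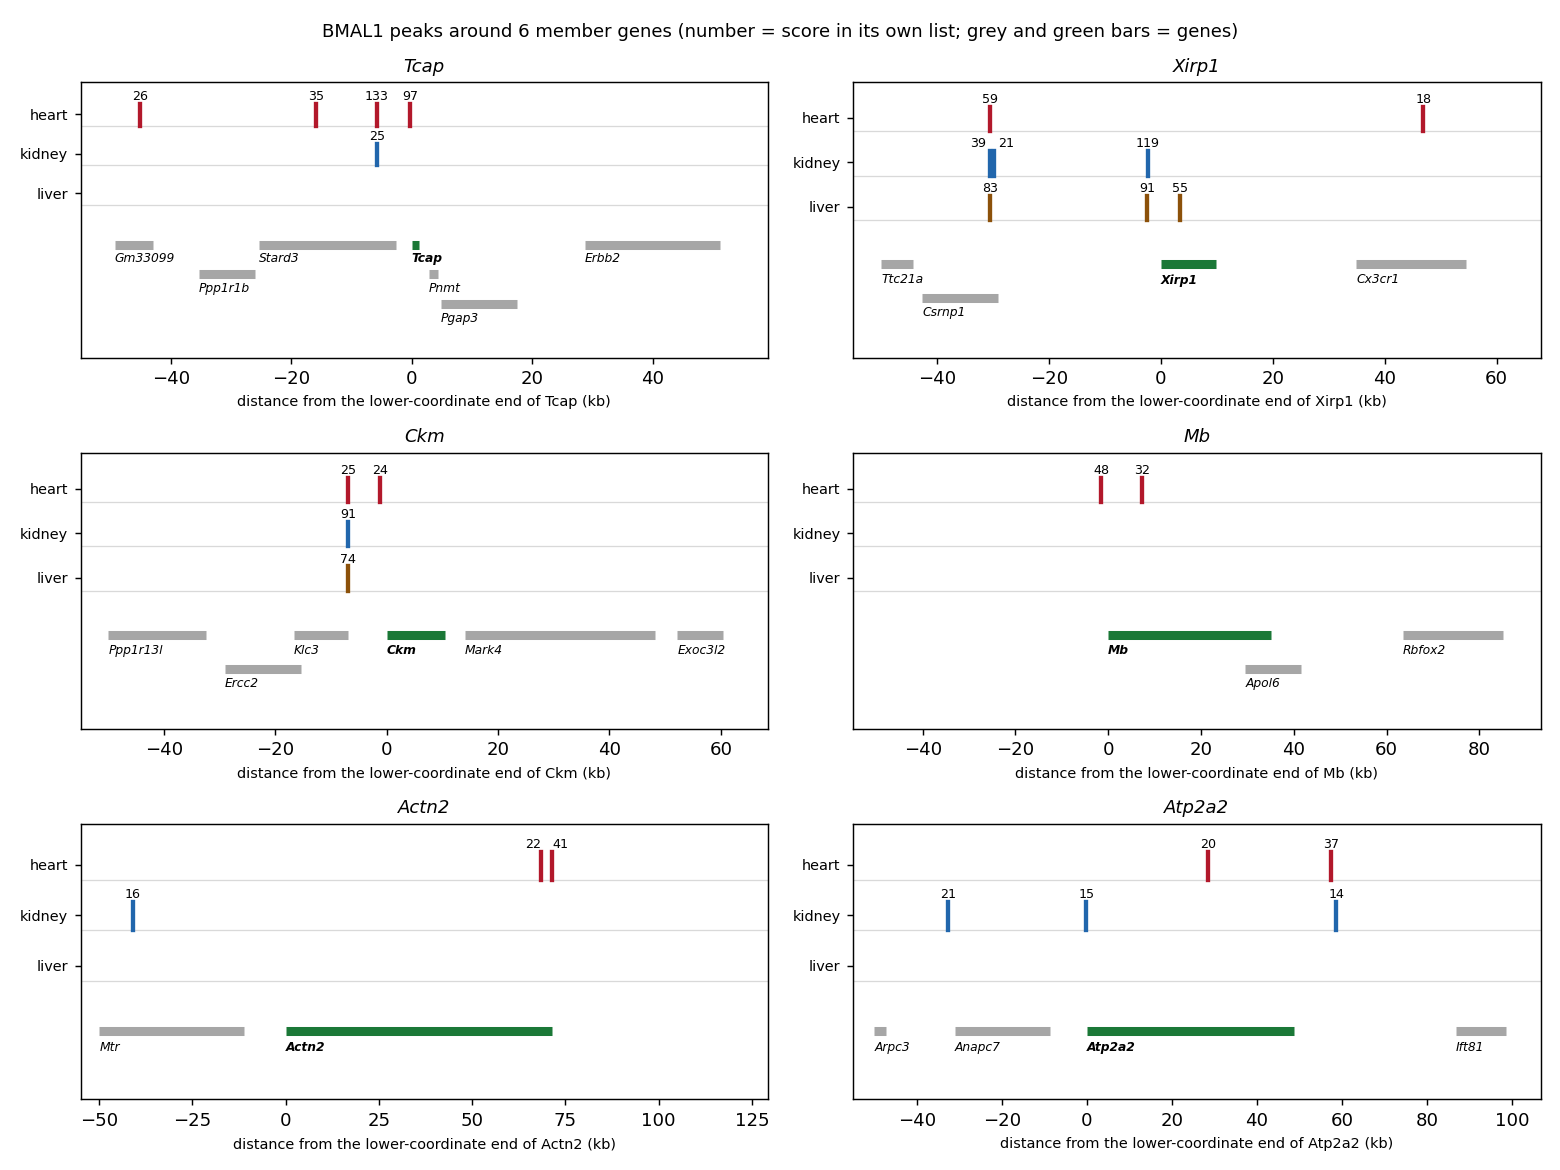
Peaks around 6 members, drawn to scale against the distance from the member's lower-coordinate end (kb); vertical bars are peak centres by list with their scores, and horizontal bars are protein-coding genes, the member in green, cut at 50 kb from the member. Heart bars stand next to or inside Tcap, Ckm, Mb, Actn2 and Atp2a2, and at Xirp1 the bars closest to the gene are from kidney and liver.

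Of the 3 genes for energy and oxygen, Mb and Ckm had heart peaks within 50 kb, where 22.7% of all protein-coding genes did. With so few genes this is a description. Ckmt2, the mitochondrial creatine kinase of the sarcomere, had no peak in any list. Mb encodes myoglobin, the oxygen store of muscle. Its heart peaks were at chr15:77013889-77014086, 1.50 kb beyond the end of the gene, with a score of 48, and at chr15:77022697-77022894 inside the gene, with a score of 32. The centre of the peak inside Mb lay 9 bp before 1 of the gene's 3 annotated starts and 69 bp before another. Neither liver nor kidney had a peak within 50 kb of Mb. Ckm encodes the cytosolic creatine kinase of muscle. A heart peak of score 24 lay 1.25 kb upstream of it at chr7:19409743-19409940 and overlapped no other list. A site 6.9 kb upstream, in the promoter of Klc3, was shared by all 3 lists, with scores of 91 in kidney (rank 250, chr7:19404072-19404259), 74 in liver (rank 888, chr7:19404039-19404280) and 25 in heart (rank 1257, chr7:19404045-19404242).

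The natriuretic peptide genes Nppa and Nppb are neighbours and share peaks, and neither was the nearest gene of any peak. Both encode hormones released by the myocardium under stretch. A heart peak of score 36 at rank 763, at chr4:147965803-147966000, lay 19.9 kb upstream of Nppb and 34.8 kb from Nppa. Its nearest protein-coding gene was 2510039O18Rik. The liver list had a peak of score 18 inside Clcn6, a chloride transporter gene, 7.65 kb past Nppa and 22.5 kb from Nppb, at chr4:148009605-148009846. A second liver peak, of score 28, lay at the promoter of 2510039O18Rik. The kidney list had a peak of score 52 at the promoter of Clcn6, 36.8 kb from Nppa, at chr4:148038736-148038923.

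Of the 7 genes of calcium handling, 2 had a heart peak, 3 a kidney peak and none a liver peak within 50 kb. The backgrounds were 22.7%, 33.1% and 34.0%, and counts over 7 genes are given as a description. Atp2a2 encodes SERCA2, the pump that returns calcium to the sarcoplasmic reticulum. The heart list had a peak of score 37 at chr5:122510805-122511002, 8.68 kb outside the gene, and one of score 20 inside it at chr5:122481934-122482131. The kidney list had 3 peaks within 50 kb of Atp2a2, of scores 21, 15 and 14, of which the one of score 15 lay 151 bp outside the gene at chr5:122453268-122453455 and the last 9.94 kb outside it at chr5:122512071-122512258. The centres of that last peak and of the higher heart peak were 1261 bp apart, so they did not overlap. Jph2, which ties the sarcoplasmic reticulum to the cell membrane, had a heart peak of score 23 inside the gene at chr2:163363411-163363608, 34.5 kb past the start.

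Ryr2, the calcium release channel of the sarcoplasmic reticulum, had its only peak in kidney. It was centred 71 bp before the start at chr13:12106922-12107109, with a score of 47 at rank 938 of 4034. Casq2, the calcium buffer of the cardiac sarcoplasmic reticulum, likewise had a peak in kidney only, of score 32, 22.5 kb upstream at chr3:102063842-102064029. Pln, the inhibitor of SERCA2, Trdn, a partner of the release channel, and the sodium-calcium exchanger Slc8a1 had no peak in any list. Peaks in the kidney list come from whole kidney, and which of its cells they came from was not tested.

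Across all roles, 26 of 39 members had a peak within 50 kb in at least 1 list (66.7%, against 50.7% of all protein-coding genes) and 13 in none (33.3%, against 49.3%). Kidney and heart without liver was the combination at 5 members, Tnnt2, Actn2, Tcap, Des and Atp2a2 (12.8%, against 3.08%). Heart alone was found at Myl2, Tnni3, Mb and Jph2 (10.3%, against 5.55%) and kidney alone at 7 members (17.9%, against 8.09%). Liver alone was found at 3 members (7.69%, against 8.98%), liver and heart at 2 (5.13%, against 3.04%) and liver and kidney at Myh6 and Myoz2 (5.13%, against 10.9%). All 3 lists had a peak near Xirp1, Ckm and Nppa (7.69%, against 11.0%). By nearest gene the combinations changed: 28 members had no peak (71.8%, against 74.2%), 6 had heart alone (15.4%, against 4.03%), and kidney and heart without liver was left at Atp2a2 only (2.56%, against 1.32%). At the 5 members with kidney and heart peaks, only the Stard3 site near Tcap was the same site in both lists. Shared sites were not counted over the 675 protein-coding genes with this combination, so that count is a description.

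The other genes of the same structures, 51 paralogs and partners of the members, were counted the same way. In heart 19 had a peak within 50 kb (37.3%, against 22.7%), in kidney 19 (37.3%, against 33.1%) and in liver 23 (45.1%, against 34.0%). These counts are not fully separate from those of the members, since 1 of the 18 heart peaks and 1 of the 27 kidney peaks near related genes also lay within 50 kb of a member, as did 0 of the 33 liver peaks. The highest heart scores near these genes were 127 near Mylpf, a fast-muscle light chain, and 79 near Mybphl, a relative of myosin-binding protein C in heart. Both sites were found in all 3 lists and lay 40.1 and 21.9 kb from those genes. The Mylpf site scored 210 in liver and 118 in kidney, and the Mybphl site 103 in liver and 130 in kidney. Next in heart came a site of score 47 near both Tnni2 and Tnnt3. A site of score 45 followed, 6.09 kb from Actn3 and found in all 3 lists. In liver, Smyd1, a methyltransferase needed for sarcomere assembly, had 6 peaks within 50 kb, the highest inside the gene with a score of 182 at rank 69 of 4813. In kidney, Jph1, the skeletal muscle junctophilin, had a peak of score 88 at rank 270 inside the gene, at a site shared with liver. Peaks at muscle genes were thus not limited to the heart list.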

How the data were processed

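Per the labels, libraries were made from 10 ng of DNA of tissue fixed with 1% formaldehyde, with a chicken antibody against mouse BMAL1, 16 PCR cycles and reads of 75 bp. The submitters' processing notes name Bowtie2, SAMtools, HOMER and mm10, with no role, version or order. The authors deposited 1 peak list per tissue from pooled libraries, with 1 score per peak whose scale is not given in the sources used here. Peaks had 1 width per list (242, 188 and 198 bp in liver, kidney and heart).

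Genes came from RefSeq GRCm38.p6. Peaks lay within 1 kb of a gene end in 32.5, 44.9 and 40.9% of cases in liver, kidney and heart, against at most 10.9% after shifts of 100 kb. Peaks were shared at an overlap of at least 1 bp. Counting was tested on simulated peaks. Python 3.11.15 and pandas 2.3.3 were used. The members and lists were chosen with earlier results of these data known. The text accounts for all members and names other genes where they are nearest to a member peak, or are among the related genes with the highest scores. Windows, thresholds on peaks, sharing rules and background genes were varied.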

Additional observations from a re-analysis of the deposited data

How the results depend on the processing

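Of 78 recomputed values 38 stayed within their range (counts within 1.5 times, differences within the exact 95% binomial interval of the members' share, a yardstick that takes genes as units although some share peaks, and no error of the counts), 37 moved and 3 reversed. The 3 reversals were the kidney difference from the background, which was -5.21 percentage points within 10 kb, -9.67 inside genes and -3.92 by nearest gene. The heart difference stayed between 5.99 and 14.5 points and the liver difference between -12.9 and -0.0974, the latter within 100 kb, where members and background were nearly equal. Inside genes, 2 liver, 0 kidney and 5 heart members had a peak, with as many peaks. Within 10 kb, 5 liver, 5 kidney and 7 heart members had one, with 6, 6 and 12 peaks. Within 100 kb, 18 liver members had one, with 26 liver and 32 kidney peaks. By nearest gene, 2, 4 and 7 members had one in liver, kidney and heart. The top 1000 peaks of each list left 3 liver and 7 kidney members, 4, 7 and 12 peaks and 0, 4 and 11 peaks of 1 tissue in liver, kidney and heart. The upper 50% by score left 4 liver and 11 kidney members, 6 and 12 peaks, and 2 and 8 peaks of 1 tissue. As many top peaks as the heart list holds left 4 liver members, 6 liver and 13 kidney peaks, and 2 and 8 peaks of 1 tissue. Narrower windows and shorter lists hold fewer peaks by construction. No paired analysis was possible because each list pools all libraries of a tissue, which also leaves no replicate to leave out and no depth to judge weak peaks by.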

Other observations

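The peaks closest beyond the 50 kb limit were these. A heart peak of score 18 lay 53.7 kb from Myoz2, a kidney peak of score 17 lay 56.7 kb from Myom1, and a heart peak of score 18 lay 56.9 kb from Ttn. The farthest peaks inside the limit were the kidney and liver peaks at Pabpn1, 48.0 and 47.4 kb from Myh6, and the kidney peak 47.4 kb from Myom2. Some peaks of different lists lay close without overlapping. At Pabpn1 the liver and kidney centres were 667 bp apart, and at Csrnp1 a second kidney peak lay 639 bp from the liver peak.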
